A study of Saccharomyces cerevisiae with 16 samples.

Results

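The set1htz1 double mutant of budding yeast was compared with wild type on 4 spotted 2-colour arrays, which are 4 of the 16 arrays in the series and were chosen by their titles alone. Each array carried cDNA of a mutant culture in one dye and of a paired wild-type culture in the other, and the deposited description calls the 4 arrays independent biological replicates. The mutant was labelled with Cy5 on arrays 1 and 3 and with Cy3 on arrays 2 and 4. The other arrays hold set1, the triple mutant set1htz1sir2 and H3K4A, a histone H3 with alanine in place of lysine 4, each on 4 arrays against wild type. All cultures grew at 30 °C in YPD, a rich glucose medium, supplemented with tryptophan and adenine, and were harvested in log phase at an OD600 of 0.7. The labels name the mutated genes but not the kind of allele, and no source used here gives the strain background, mating type or marker genotype. An array averages a whole culture, so a change in every cell and a change in part of the cells cannot be told apart.

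Set1 is the catalytic subunit of COMPASS, the complex that methylates lysine 4 of histone H3 in yeast, a mark found at the start of transcribed genes. HTZ1 encodes the histone variant H2A.Z, which the SWR1 complex places into nucleosomes beside promoters. Both are known in yeast for limiting the spread of silent chromatin near telomeres and for tuning genes that respond to a change in nutrients. Sir2 is the histone deacetylase of silent chromatin at telomeres and at the silent mating loci.

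The values are log2 ratios of mutant over wild type, so that 1 stands for a 2-fold higher signal in the mutant, and they give no level of a gene relative to another gene. Between 5385 and 5798 table entries had a value on each set1htz1 array. All 4 arrays had a median log2 ratio of -0.03, and the SD over entries lay between 0.486 and 0.556. Pairs of arrays with the mutant in the same dye correlated at 0.80 and 0.854 across genes, and pairs in opposite dyes at 0.649 to 0.817. Of 6074 genes, 5744 were tested, those with no more than 1 of the 4 set1htz1 values missing. A gene was called at a Benjamini-Hochberg adjusted p under 0.05 in limma, and errors written after ± are limma's standard errors on the log2 scale.

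Transcripts of both mutated genes were low on every array. The log2 ratio of HTZ1 was -2.84, -2.74, -2.84 and -3.32 on arrays 1 to 4, a fitted fall of 7.65-fold (log2 -2.94 ± 0.12, adjusted p = 1.0e-10). SET1 stood at -2.74, -1.74, -2.25 and -2.64, a fitted fall of 5.07-fold (log2 -2.34 ± 0.15, adjusted p = 2.8e-09). The values of each gene lay below all those of SIR2, which ranged from -0.15 to -0.04 and was not called (adjusted p = 0.46). No source used here says whether the probes lie inside altered parts of the genes.

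Some partners of both proteins were also lower. All 5 tested COMPASS subunits beside SET1 fell, by little, where 25.3% of all genes tested fell. SWD3, a WD-repeat subunit, was lowest at -0.85 ± 0.14, followed by SWD1 (-0.46), SWD2 (-0.38), SPP1 (-0.37) and BRE2 (-0.30). SWD3 was at -1.60 on array 1 and between -0.69 and -0.54 on the other 3. Of 14 tested genes of the SWR1 complex and H2A.Z chaperones 6 fell (42.9%), among them ARP4 (-0.68), BDF1 (-0.68) and the H2A.Z chaperone NAP1 (-0.47), and SWC7 rose (0.35). The catalytic subunit SWR1 itself was not called (0.17 ± 0.23).

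In all, 2666 of the 5744 genes were called, which is 46.4%. A total of 1212 rose (21.1%) and 1454 fell (25.3%). Most changes were small, since 1711 of the called genes, or 64.2%, differed from wild type by less than 1.5-fold, and the median size of a called change was 0.49 on the log2 scale. Larger changes were mostly rises. With a change of at least 2-fold 140 genes rose (2.44% of genes tested) and 49 fell (0.853%), and with at least 4-fold 15 rose and 3 fell. Of the called genes 2492 had the same sign on every array. The dye term was called for 1162 genes and was largest for CTF4, TEF1, ENO2 and YLR177W, of which YLR177W (0.46 ± 0.15) alone was called for the mutant.

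**Figure D1:**
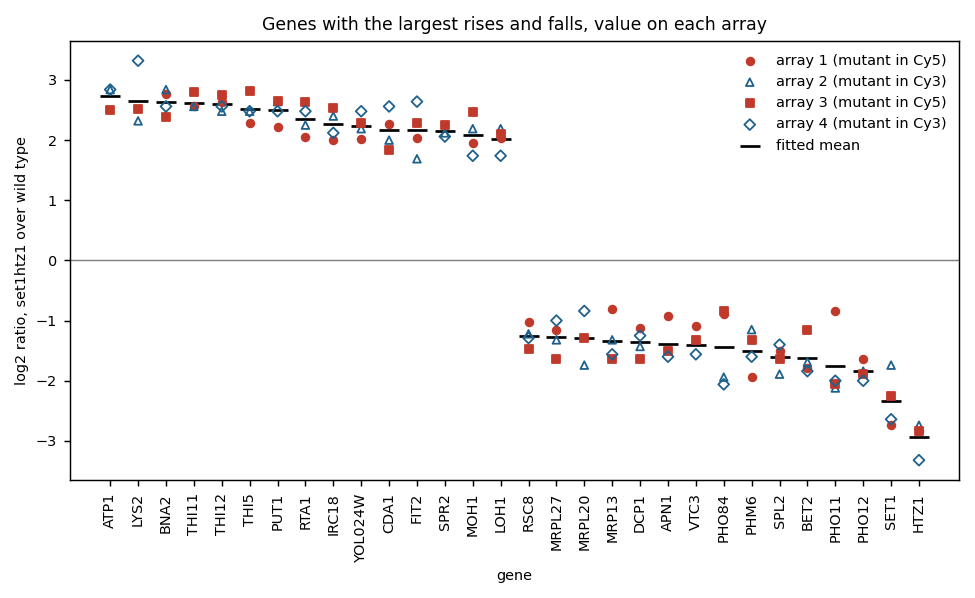
Log2 ratio of set1htz1 over wild type on each array (vertical axis) for the 15 genes with the largest rises and the 15 with the largest falls (horizontal axis), with 1 symbol per array and a bar for the fitted mean; MET17, at the floor of the table, is left out. The points of the risen genes start at 1.69 (FIT2) and those of the fallen genes end at -0.81 (MRP13), and PHO11 on array 1 and both Cy5 arrays of PHO84 stand nearer to 0 than the other arrays.

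The largest rise was that of ATP1, which encodes the alpha subunit of the mitochondrial ATP synthase. Its log2 ratio was 2.84, 2.5 and 2.84 on arrays 2 to 4, with no value on array 1, a fitted rise of 6.65-fold (2.73 ± 0.14, adjusted p = 2.9e-09). BNA2, the tryptophan dioxygenase that opens NAD synthesis, stood at 2.77, 2.84, 2.39 and 2.56 (2.64 ± 0.11, adjusted p = 4.9e-12). The lowest array of BNA2, at 2.39, lay below the lowest of ATP1, at 2.5, and no array of either was near 0. PUT1, the first enzyme of proline breakdown, was at 2.21, 2.64, 2.65 and 2.48 (2.5 ± 0.12, adjusted p = 3.6e-11). RTA1, a membrane protein of a lipid-transporter family, was at 2.06, 2.25, 2.63 and 2.48 (2.35 ± 0.10, adjusted p = 4.9e-12). THI11, THI12 and THI5, which make the pyrimidine part of thiamine, rose by 2.62, 2.60 and 2.51. These 3 genes are nearly identical in sequence, so that their probes can share signal and the values may stand for a single measurement.

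The rest of the leading group had varied roles. CDA1, a chitin deacetylase of the spore wall, rose by 2.17 ± 0.11, with 1.84 as its lowest array. LOH1, also of the spore wall, rose by 2.02 ± 0.10, and its divergent neighbour IRC18 rose by 2.27 ± 0.13. SPR2 rose by 2.16, MOH1 by 2.09 and the uncharacterised YOL024W by 2.24. FIT2, a cell wall protein that holds iron-bound siderophores, rose by 2.16 but with the widest error of this group (0.33), and its dye term was 0.95.

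The falls were led, after HTZ1 and SET1, by genes of phosphate supply. PHO12, a secreted acid phosphatase, was at -1.64, -1.84, -1.89 and -2.0 on arrays 1 to 4 (-1.84 ± 0.10, adjusted p = 3.4e-10). PHO11, nearly identical to PHO12, was at -0.84 on array 1 and between -2.12 and -2.0 on the other 3 arrays (-1.75 ± 0.14). Their probes can share signal. BET2, a subunit of the enzyme that attaches lipids to Rab proteins, fell by 1.62 ± 0.13. APN1, the main endonuclease for abasic sites in DNA, fell by 1.39, and DCP1, a subunit of the mRNA decapping enzyme, fell by 1.36. RSC8, a subunit of the RSC chromatin remodeller, fell by 1.25. The mitochondrial ribosomal protein genes MRP13, MRPL20 and MRPL27 fell by 1.33, 1.29 and 1.28.

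MET17, LYS2 and HIS3 stand apart because their alleles serve as markers in many laboratory strains. MET17, the sulfhydrylase of homocysteine synthesis, was at -6.64 on arrays 1, 3 and 4 and at -5.64 on array 2. The value -6.64 is the floor of the table, so the fitted -6.39 is only a bound. LYS2, an enzyme of lysine synthesis, was at 2.32, 2.52 and 3.32 on arrays 2 to 4 (2.65 ± 0.17, adjusted p = 4.5e-09), with a plain mean of 2.72 that the dye term shifts in the fit because array 1 has no value. HIS3, of histidine synthesis, rose by 1.25 ± 0.12, and ADE2, of adenine synthesis, fell by 0.44 ± 0.08. CAN1, TRP1 and LEU2 lay between 0.00 and 0.10 and were not called. In the other mutants MET17 was at -5.89 in set1htz1sir2 and -0.31 in set1, and LYS2 was at 0.22 in each of them. The -5.89 also lies close to the floor, and its difference from set1htz1 was not called in limma (adjusted p = 0.22). The part of strain markers in these values was not tested.

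Nuclear genes of the respiratory chain and ATP synthase rose nearly throughout. These complexes of the inner mitochondrial membrane pass electrons to oxygen and use the proton gradient to make ATP, and their genes are repressed in cells that ferment glucose. Of 32 tested genes of complexes II, III and IV, cytochrome c and ATP synthase, 28 rose (87.5%) and none fell, where 21.1% of all genes rose. Their median was 0.85, against -0.03 for all genes, and the median on arrays 1 to 4 was 0.73, 0.96, 0.84 and 0.70. The arrays did not separate by dye.

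All 10 tested ATP synthase genes rose, from ATP4 (0.28) to ATP1. ATP4 lost its call when any 1 of the 4 set1htz1 arrays was left out. INH1, the inhibitor protein of this enzyme, was at 1.74, 1.79, 1.83 and 2.06, a rise of 3.62-fold (1.85 ± 0.16, adjusted p = 6.6e-08). ATP16, the delta subunit, was at 1.09, 1.18, 1.08 and 1.18 (1.13 ± 0.12). All 8 values of INH1 and ATP16 lay above 1, and those of ATP16 were slightly higher on the Cy3 arrays. The catalytic beta subunit gene ATP2 rose by 0.93 ± 0.22, with ATP1 far above it.

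All 4 genes of complex II, succinate dehydrogenase, rose, by 0.83 (SDH3) to 0.97 (SDH1). In complex III and cytochrome c 8 of 10 rose, with QCR8 (1.13 ± 0.12) and QCR10 (1.09 ± 0.11) highest and the cytochrome c1 gene CYT1 (0.06 ± 0.11) and QCR6 (0.24 ± 0.13) not called. In complex IV, cytochrome oxidase, 6 of 8 rose, from COX8 (0.49) to COX9 (0.96). COX9 was at 1.40, 1.12 and 1.26 on arrays 1 to 3 but 0.06 on array 4. COX4 (0.16 ± 0.11) and COX5B (0.03 ± 0.15), the subunit form used at low oxygen, were not called, whereas COX5A rose (0.70 ± 0.09). The internal NADH dehydrogenase NDI1 (0.58) and the external NDE2 (0.65) rose, and NDE1 was not called (-0.28 ± 0.13).

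The enzymes that feed the chain rose in part. In the tricarboxylic acid cycle 7 of 12 genes rose (58.3%) and 2 fell (16.7%), against 21.1% and 25.3% of all genes. The succinyl-CoA ligase subunit LSC2 (0.95), fumarase FUM1 (0.80), citrate synthase CIT1 (0.76) and KGD2 of the ketoglutarate dehydrogenase (0.69) led the rises. Both subunits of the NAD-dependent isocitrate dehydrogenase fell, IDH2 by 0.34 and IDH1 by 0.26, and aconitase ACO1 was not called (-0.24 ± 0.13). HAP4, the activating subunit of the Hap complex that drives respiration genes, was at 0.41, 0.43, 0.60 and 0.52 (0.49 ± 0.12, adjusted p = 0.0031). Its DNA-binding partners HAP3 (-0.47) and HAP5 (-0.42) fell, and HAP2 was not called (0.02). In the glyoxylate cycle and gluconeogenesis, used for growth on nonfermentable carbon, only MDH2 of 9 genes rose (0.32 ± 0.12), a share of 11.1% against 21.1% of all genes. MDH2 lost its call when array 1, 2 or 3 was left out.

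Genes that make the mitochondrial translation machinery moved the other way. The mitochondrial ribosome translates the few membrane subunits of the same complexes that the organelle's own genome encodes. Of 69 tested mitochondrial ribosomal protein genes 56 fell (81.2%) and none rose, with a median of -0.56, where 25.3% of all genes fell. The medians on arrays 1 to 4 were -0.46, -0.53, -0.74 and -0.47, all below the -0.03 of all genes. Large-subunit genes named MRPL (25 of 31 fell) and small-subunit genes named MRPS or RSM (18 of 19 fell) had medians of -0.61 and -0.60.

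MRP13 was at -0.81, -1.32, -1.64 and -1.56, a fall of 2.52-fold (-1.33 ± 0.12, adjusted p = 3.0e-07). MRPL8 (-1.16 ± 0.12), MRPS17 (-1.07 ± 0.10) and MNP1 (-1.0 ± 0.12) also fell by 2-fold or more. The highest were MRPL28 (0.14 ± 0.14), MRPL4 (0.09) and MRP4 (0.08), none of them called. The other parts of the machinery were lower to a lesser degree. Of 21 translation factors and mitochondrial tRNA synthetases 12 fell (57.1% against 25.3% of all genes) and 1, the elongation factor MEF2 (0.35), rose, led by the release factor MRF1 (-0.78 ± 0.08) and the synthetase MSM1 (-0.66 ± 0.11). The elongation factor TUF1 was not called (0.09 ± 0.10).

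Proteins that each act on a single mitochondrial mRNA fell in 11 of 15 cases (73.3% against 25.3% of all genes). AEP2, needed to translate the mRNA of an ATP synthase subunit, was at -1.29, -1.06, -1.18 and -1.12 (-1.16 ± 0.09, adjusted p = 2.1e-08). PET494, the activator of the COX3 mRNA, fell by 0.77 ± 0.09 and CBP1, which stabilises the cytochrome b mRNA, by 0.54 ± 0.08. AEP3 (0.83 ± 0.12) and ATP22 (0.33 ± 0.12), both of which serve ATP synthase, rose. All values of AEP2 lay below -1, and the median of the list was -0.37.

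Factors that assemble the complexes lay nearer to the shares of all genes. Of 25 tested 8 fell (32% against 25.3% of all genes) and 3 rose (12% against 21.1%), and the median was -0.14. ATP11 and ATP12, chaperones of the beta and alpha subunits of the ATP synthase head, fell by 0.88 ± 0.09 and 0.77 ± 0.09, while ATP2 and ATP1 themselves rose. ATP23, a protease and chaperone of the same enzyme, fell by 0.79, and COX20 (0.76) and SCO1 (0.71) of cytochrome oxidase rose. In protein import 14 of 26 genes fell (53.8%) and 2 rose (7.69%), with a median of -0.30. MGE1, the exchange factor of the mitochondrial Hsp70, fell by 0.77 ± 0.09 and MIA40, the import receptor of the intermembrane space, by 0.69 ± 0.10. The processing peptidase subunit MAS1 rose (0.91 ± 0.29) and its partner MAS2 fell (-0.31 ± 0.08). Of 21 metabolite carriers 8 rose (38.1%) and 2 fell (9.52%). The oxodicarboxylate carrier ODC1 (1.14), the phosphate carrier MIR1 (1.04) and the carnitine carrier CRC1 (1.01) rose by over 2-fold.

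**Figure D2:**
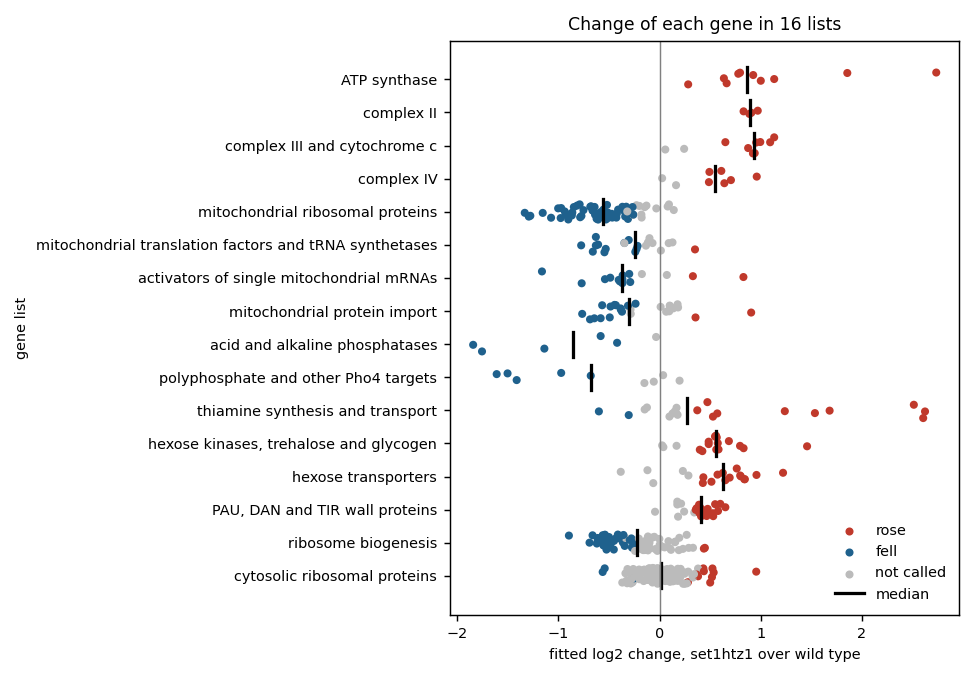
Fitted log2 change of set1htz1 over wild type (horizontal axis) for each tested gene of 16 lists (vertical axis), coloured by whether the gene rose, fell or was not called, with a bar at the median of each list. Respiratory complexes lie to the right of 0, the mitochondrial ribosome and its factors mostly to the left, and cytosolic ribosomal proteins around 0.

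Phosphate genes fell or stayed uncalled, and none rose. In yeast the factor Pho4 turns on phosphatases, transporters and polyphosphate enzymes when phosphate is short, through the kinase inhibitor Pho81. Of 27 tested genes of phosphatases, phosphate transport, polyphosphate and phosphate signalling 16 fell (59.3% against 25.3% of all genes), with a median of -0.42. This count is not limited to targets of Pho4. Of the 6 phosphatases 5 fell: after PHO12 and PHO11 came the main acid phosphatase PHO5, at -1.25, -0.92 and -1.40 on arrays 2 to 4 (-1.14 ± 0.11, adjusted p = 5.9e-07), then PHO3 (-0.58) and PHO13 (-0.42). The vacuolar alkaline phosphatase PHO8 was not called (-0.03 ± 0.19).

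Among transporters the high-affinity PHO84 fell by 1.43 ± 0.13 (adjusted p = 3.7e-07), together with PHO86 (-0.68), which PHO84 needs to leave the endoplasmic reticulum, and the sodium-linked PHO89 (-0.58). PHO84 was at -0.89 and -0.84 on the Cy5 arrays 1 and 3 and at -1.94 and -2.06 on the Cy3 arrays 2 and 4, so that its size differed with the dye and its sign did not. The low-affinity PHO90 (-0.22) and PHO91 (0.01) were not called. SPL2, which lowers low-affinity phosphate uptake, was at -1.51, -1.89, -1.64 and -1.40 (-1.61 ± 0.10, adjusted p = 9.3e-10). PHM6, a phosphate-responsive gene of unknown role, fell by 1.5. The polyphosphate synthesis genes VTC3 (-1.41), VTC2 (-0.97) and VTC4 (-0.68) fell and VTC1 did not pass (-0.15 ± 0.12). Of the signalling genes PHO81 (-0.66), PHO2 (-0.35) and PHO4 (-0.33) fell, and the cyclin PHO80 and kinase PHO85 were not called (0.04 and -0.14).

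Vitamin and cofactor genes changed in both directions. Of 20 tested genes of thiamine synthesis, its transport and the linked pyridoxine genes 10 rose (50% against 21.1% of all genes) and 2 fell (10% against 25.3%). The risen genes include THI5, THI11 and THI12, which may stand for a single measurement. In set1 10 of the 20 also rose against wild type, where 495 of all 5477 genes rose. The median was 0.261 in set1 and 0.275 in set1htz1. THI12, one of the near-identical genes above, was at 2.63, 2.48, 2.75 and 2.56, high on every array. THI4, which makes the thiazole ring of thiamine, rose by 1.68 ± 0.14. SNZ1 (1.53 ± 0.09) and SNO1 (1.24 ± 0.10), paired genes of pyridoxine synthesis, rose more than SNZ2 (0.53) and SNZ3 (0.57). The kinase THI80, which makes the active cofactor, fell by 0.60, as did the regulator THI3 (-0.30), and the transporter THI7 was not called (0.10).

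In NAD synthesis and uptake 5 of 13 genes rose (38.5% against 21.1% of all genes) and 3 fell (23.1%, near the 25.3% of all genes). Besides BNA2, the later pathway enzyme BNA1 was at 1.40, 1.40, 1.5 and 1.15 (1.36 ± 0.10) and the nicotinic acid transporter TNA1 at 1.43, 1.43, 1.40 and 1.52 (1.45 ± 0.14). Both lay above 1 on every array. The nicotinamidase PNC1 rose by 0.78. BNA4 and BNA5, which act between BNA2 and BNA1, were not called (0.15 and 0.04), and the formamidase BNA7 of the second step fell by 0.63.

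Genes for the use of poor nitrogen sources rose in part. Of 11 amino acid breakdown genes 5 rose (45.5%) and 1 fell (9.09%), where 21.1% of all genes rose and 25.3% fell, and PUT1 was joined by PUT2 (0.57), the second enzyme of proline use, and by their activator PUT3 (0.38). CAR1, arginase, was at 1.76, 1.52, 1.63 and 1.84 (1.69 ± 0.09, adjusted p = 3.5e-10). CAR2, ornithine aminotransferase, was at 1.33, 1.29, 1.59 and 1.32 (1.38 ± 0.11). The lowest of their 8 values was 1.29. CHA1, the serine and threonine deaminase, fell instead, with -1.29, -1.32, -1.32 and -0.94 (-1.22 ± 0.08, adjusted p = 4.5e-09).

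Of 13 nitrogen permease and allantoin genes 5 rose (38.5% against 21.1% of all genes) and none fell, with the allantoinase DAL1 (1.17 ± 0.14), the general amino acid permease GAP1 (0.71) and the urea transporter DUR3 (0.58) highest. In arginine synthesis 4 of 8 rose (50%) and ARG8 fell (-0.36). In set1 5 of these 8 rose against wild type, where 495 of all 5477 genes rose. The median was 0.53 in set1 and 0.284 in set1htz1. The lyase ARG4 rose by 1.26 ± 0.10. In lysine synthesis 3 of 9 rose (33.3%): LYS2, LYS1 (0.56) and LYS21 (0.36). In sulfate uptake and methionine synthesis 9 of 20 rose (45%), led by the sulfate transporter SUL1 (0.92) and the cofactor MET28 (0.81), and 5 fell (25%, about the 25.3% of all genes), among them MET17, MET32 (-0.73) and MET2 (-0.71).

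Genes of hexose kinases and of storage carbohydrates rose together. Trehalose and glycogen are reserves that yeast builds up when growth slows. Of 17 hexose kinase, trehalose and glycogen genes 14 rose (82.4% against 21.1% of all genes) and none fell, with a median of 0.56 and array medians from 0.54 to 0.58. HXK1, the hexokinase used outside high glucose, was at 1.56, 1.48, 1.85 and 0.94 (1.46 ± 0.13, adjusted p = 9.0e-08), and glucokinase GLK1 rose by 0.83. HXK2, the hexokinase of growth on glucose, was not called (0.03 ± 0.14). TSL1 (0.80), ATH1 (0.68) and TPS2 (0.58) of trehalose metabolism rose, as did PGM2 (0.57) and the glycogen synthase GSY1 (0.56).

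Of 19 hexose transporter genes, GAL2 and the glucose sensor RGT2 included, 14 rose (73.7% against 21.1% of all genes) and none fell, with a median of 0.63. HXT4 was highest at 1.26, 1.43, 1.41 and 0.78 (1.22 ± 0.19), followed by HXT3 (0.96) and HXT10 (0.84). HXT1 and HXT2 were not called (-0.12 and -0.06). Several of these genes are nearly identical (HXT6 with HXT7, HXT13 with HXT17, HXT15 with HXT16), and their probes can share signal. Of 6 galactose genes GAL1 (1.13 ± 0.10), GAL3 (0.78) and GAL2 (0.43) rose, while GAL7 was not called (-0.02 ± 0.10). Glycolytic genes were nearer the background with 3 of 13 risen (23.1% against 21.1%). Their median followed the dye, with 0.51 and 0.60 on the Cy5 arrays 1 and 3 and -0.42 and -0.12 on the Cy3 arrays 2 and 4.

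Small heat shock proteins stood out among the stress genes. HSP26, which holds unfolded proteins, was at 2.0, 1.84, 1.93 and 1.79, a rise of 3.71-fold (1.89 ± 0.09, adjusted p = 7.1e-11). HSP12, a membrane stress protein, was at 1.78, 1.69, 1.20 and 1.84 (1.63 ± 0.17). HSP30, a plasma membrane protein, rose by 1.72 ± 0.13 and HSP42 by 1.10 ± 0.14. HSP26 was high on all 4 arrays, and HSP12 was lowest on array 3. In all 10 of 22 chaperones rose (45.5% against 21.1% of all genes) and 1, MGE1, fell. The median of the chaperones was 0.51 and 0.53 on the Cy5 arrays 1 and 3 but 0.02 and 0.20 on the Cy3 arrays 2 and 4. The disaggregase HSP104 rose by less (0.46), and the general Hsp70 genes SSA1 (0.26) and SSB1 (-0.05) were not called. All 3 tested DJ-1-like chaperones rose, HSP31 by 1.71, HSP32 by 1.37 and HSP33 by 1.24, and HSP32 and HSP33 are nearly identical. All 3 also rose in set1, with a median of 1.70 there and 1.37 in set1htz1. Of 14 general stress genes 8 rose (57.1%) and 1 fell (7.14%), with HOR7 (1.46) and the mitochondrial superoxide dismutase SOD2 (0.91) following HSP12 and catalase CTT1 not called (0.05 ± 0.13).

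Folding genes of the endoplasmic reticulum lay near the shares of all genes, with 4 of 13 risen (30.8% against 21.1%) and 4 fallen (30.8% against 25.3%). The Hsp70 KAR2 was at 1.86, 0.81, 1.48 and 1.22 (1.34 ± 0.12, adjusted p = 9.1e-08), and EUG1 (0.71), ERO1 (0.58) and the sensor kinase IRE1 (0.43) rose. The calnexin CNE1 (-0.65) and the KAR2 cofactors SCJ1 (-0.48) and SIL1 (-0.39) fell. HAC1, the transcription factor that IRE1 activates by splicing, was not called (0.25 ± 0.13).

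Ribonucleotide reductase makes the DNA precursors, and its genes respond to DNA damage. The small-subunit genes RNR4 (1.52, 0.71, 1.34 and 0.78 on arrays 1 to 4, 1.09 ± 0.10) and RNR2 (0.85 ± 0.12) rose, as did the inhibitor SML1 (0.46), DIF1 (0.92), which brings the small subunit into the nucleus, and the kinase DUN1 (0.44). The large-subunit gene RNR1 fell by 0.57 ± 0.11, and RNR3, the damage-induced large subunit, was not called (0.18 ± 0.21). Of 15 DNA repair genes 5 rose (33.3% against 21.1% of all genes) and 7 fell (46.7% against 25.3%). LIF1, the partner of DNA ligase IV in end joining, was at 1.97, 1.65, 2.18 and 1.48 (1.82 ± 0.13, adjusted p = 2.2e-08), and the oxidised-guanine glycosylase OGG1 rose by 1.73 ± 0.21. The recombination gene RAD52 fell by 0.41 ± 0.08. APN1 and the glycosylases NTG1 (-0.55) and UNG1 (-0.39) of base excision repair fell.

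Few cytosolic ribosomal protein genes passed the test. Of 131 tested 10 rose (7.63%) and 3 fell (2.29%), both below the shares of all genes, and the median was 0.02. The median of this list followed the dye, with 0.31 and 0.21 on arrays 1 and 3 and -0.25 and -0.23 on arrays 2 and 4. RPL32 was highest (0.95 ± 0.12) and lay between 0.86 and 1.06 on all 4 arrays, and RPS7B was lowest (-0.56 ± 0.10). Many of these genes are pairs of near-identical copies whose probes can share signal. Of 73 ribosome biogenesis genes 32 fell (43.8% against 25.3%) and 2 rose, with a median of -0.22. RRP7 (-0.90 ± 0.10), RRP15 (-0.69) and IMP3 (-0.66), all of which process ribosomal RNA, fell most, and NOP1 (0.44) and HAS1 (0.45) rose. RNA polymerases I and III were near the shares of all genes, with 7 of 21 fallen (33.3%), RPC37 lowest (-0.78), and 5 risen (23.8%), RPA14 highest (0.99).

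Of 9 histone genes 4 fell (44.4% against 25.3% of all genes). The H2A genes HTA1 and HTA2 fell by 0.67 ± 0.14 and 0.72 ± 0.12, HTB1 by 0.26 and the H4 gene HHF2 by 0.70 ± 0.11. HTA2 was at -0.64, -0.74, -0.43 and -1.06, below 0 on every array. The H3 genes HHT1 (0.02) and HHT2 (-0.15) and the second H4 gene HHF1 (-0.05) were not called. The copies of each histone are close in sequence and their probes can share signal. Among relatives of SIR2 the deacetylase HST2 rose (0.82 ± 0.10) and HST1, which works with SUM1, fell (-0.54 ± 0.10). SIR4 and SUM1 were not called (0.06 each). Of 8 genes beside the silent mating loci YCR102C (0.88) and VBA3 (0.32) rose (25% against 21.1% of all genes). CHA1, YCL068C (-0.48) and YCR099C (-0.33) fell (37.5% against 25.3%).

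The genes specific to each mating type were counted apart. None of either set fell, where 21.1% of all genes rose and 25.3% fell. Of 6 a-specific genes 4 rose, with AGA2, the a-agglutinin subunit, at 0.71, 1.12, 1.32 and 1.09 (1.06 ± 0.11), the pheromone gene MFA2 at 0.87, the receptor gene STE2 at 0.67 and the protease gene BAR1 at 0.48. Of 4 alpha-specific genes 3 rose, MF(ALPHA)2 by 0.99, MF(ALPHA)1 by 0.38 and SAG1 by 0.35, and STE3 was not called (-0.31 ± 0.14). SAG1 was at 0.82 and 0.99 on the Cy5 arrays and at -0.01 and -0.38 on the Cy3 arrays. The median of the 4 genes was 0.80 and 0.60 on the Cy5 arrays and 0.15 and -0.01 on the Cy3 arrays. In set1htz1sir2 the 3 alpha-specific genes with enough values all fell against wild type, with a median of -4.955 (1437 of all 5521 genes fell). The 3 a-specific genes with enough values there were not called. Whether the a-specific genes were expressed above background in these cultures was not tested. Of 11 haploid-specific genes none rose and 3 fell (27.3%, near the share of all genes), STE12 by 0.41, NEJ1 by 0.40 and GPA1 by 0.28. Of 13 genes induced by pheromone 7 rose (53.8%) and 2 fell (15.4%). PRM6 (1.34 ± 0.14), FUS2 (1.08 ± 0.11) and FIG1 (0.92 ± 0.13) were highest, and FUS1, a standard marker of this response, was not called (0.23 ± 0.13).

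Of 23 sporulation and spore wall genes 13 rose (56.5% against 21.1% of all genes) and 2 fell (8.7% against 25.3%), in cultures that were in log phase. After CDA1 and LOH1 came the kinase SPS1 (1.41 ± 0.11), the enzyme SPS19 (1.41 ± 0.10), the wall glucan enzyme GAS4 (1.26 ± 0.12) and DIT1 (0.98 ± 0.09), which makes dityrosine. GAS4 was at 1.06, 1.40, 1.35 and 1.22, above 1 on every array. NDT80, the factor that turns on the middle genes of sporulation, fell by 0.48 ± 0.12, and the kinase SMK1 fell by 0.61 ± 0.12. Of 16 early meiotic genes 5 rose (31.2%), by at most 0.47 (REC104), and RIM4 fell by 0.38. The inducers IME1 (0.36) and IME2 (0.33) rose by little.

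Position along the chromosome went with the direction of change. Genes were ordered from the end of each chromosome arm by ORF name. Of the 136 tested genes among the outermost 5 of an arm 55.1% rose and 9.56% fell, with a median of 0.35. Among genes 6 to 10 37.6% rose and 15.4% fell, and among genes 11 to 20 these shares were 23.9% and 22.6%. Beyond the 40th gene 19.6% rose and 26.2% fell, with a median of -0.04. For the outermost 5 the medians on arrays 1 to 4 were 0.29, 0.24, 0.41 and 0.33, above the -0.03 of all genes on each array. Without array 3, 50 of these genes rose in place of 75. Their array medians were 0.28, 0.21, 0.195 and 0.20 in set1 and 0.27, 0.50, 0.26 and 0.29 in set1htz1sir2. Against set1, 14 of 133 of the outermost genes were higher and 9 lower in set1htz1, with a median difference of 0.02. Of all genes 8.86% were higher and 9.91% lower in that comparison.

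**Figure D3:**
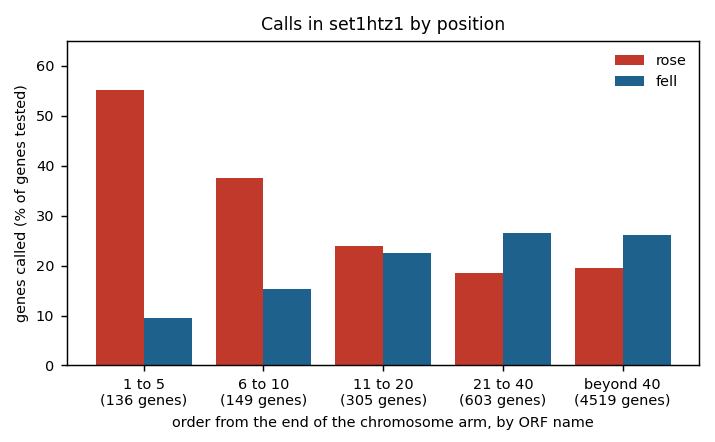
Percent of tested genes that rose or fell in set1htz1 (vertical axis) by order from the end of the chromosome arm (horizontal axis, from ORF names). The share that rose drops from 55.1% in the outermost 5 genes to 19.6% beyond the 40th, and the share that fell goes from 9.56% to 26.2%.

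Both repeated families and other genes rose there: 23 of 31 outermost genes in the PAU, DAN, TIR, COS, AAD, FLO, HXT and YRF1 families rose, and so did 52 of the other 105, with medians of 0.39 and 0.32. Among the latter HXK1, HSP32, HSP33, the transporter-like MCH2 (1.15) and SEO1 (1.12) rose most. PHO12, PHO11, IRC7 (-1.21), the fluoride exporter FEX2 (-1.0) and COS10 (-0.81) fell most. Of 25 PAU, DAN and TIR wall protein genes 18 rose (72% against 21.1% of all genes) and none fell, with a median of 0.41 and a highest value of 0.65 (PAU17). Of 10 COS genes 8 rose, by 0.35 (COS3) to 0.59 (COS4). Of 6 tested YRF1 helicase genes 3 rose, by 0.44 (YRF1-1) at most. Members of the PAU, COS and YRF1 families are near-identical copies, so that their counts may repeat a few signals. The wall proteins HPF1 (1.32 ± 0.13) and HSP150 (0.77 ± 0.12) rose, while FLO1, FLO5 and FLO9 lay between -0.21 and -0.18 and were not called.

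Neighbouring genes rose or fell by 2-fold or more together in 6 of 4640 pairs of adjacent genes that do not overlap. The divergent pairs were LOH1 and IRC18 (2.02 and 2.27), SNO1 and SNZ1 (1.24 and 1.53), MIR1 and BNA2 (1.04 and 2.64), and, among the falls, the mitochondrial ribosomal gene MNP1 (-1.0) and the RNA polymerase II subunit gene RPB9 (-1.14). The tandem pairs were MOH1 and RRT1 (2.09 and 1.79) and the inositol synthesis gene INO1 and SNA3 (1.08 and 1.16). At any size both genes rose in 5.67% of pairs, both fell in 8.75% and the pair moved in opposite directions in 7.52%. Of the genes in these pairs 20.2% rose and 26.8% fell, and the products of these shares are 4.06% for both rising and 7.19% for both falling. No such value was computed for the pairs that moved in opposite directions, so their 7.52% has no product beside it. None was computed for the pairs that changed by 2-fold or more either.

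Other lists had few or small changes. Of 17 iron genes 4 rose (23.5% against 21.1% of all genes) and 2 fell (11.8% against 25.3%), and apart from FIT2 the rises did not exceed 0.72 (ARN2). Of 22 ergosterol genes 2 rose (9.09%), ERG28 (1.34 ± 0.10) and the reductase HMG1 (0.32), and ERG8 fell (-0.47), so that both shares lay below those of all genes. Of 34 proteasome genes 8 rose (23.5% against 21.1%) and 3 fell, with a median of 0.01 and their activator RPN4 not called (0.24 ± 0.12). Of 6 AAD genes 3 rose (50%), by at most 0.29 (AAD6), and none fell.

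The double mutant was next set against set1, whose label names SET1 alone. MET17 was at -6.39 (a bound) in set1htz1 and -0.31 in set1, and LYS2 was at 2.65 and 0.225. The groups thus differed at genes used as strain markers besides HTZ1, and the part of each in the differences was not tested. Both groups were measured against their own wild-type cultures. Of 5477 genes with enough values 1028 differed (18.8%), 485 higher (8.86%) and 543 lower (9.91%) in the double mutant. The count was 614 after quantile normalization and 678 without set1htz1 array 3. Besides HTZ1 and MET17, the lowest were phosphate genes: PHO11 (-1.96), PHO12 (-1.90), PHM6 (-1.85), VTC3 (-1.47) and SPL2 (-1.46). PHO12 lay between -0.47 and 0.49 on the set1 arrays, and between -2.0 and -1.64 on the set1htz1 arrays. ARG1 was lower by 1.39, as it stood higher in set1 (1.0 to 2.69 on 4 arrays) than in set1htz1 (0.19 to 0.72). The highest were LYS2 (2.42), MOH1 (2.37), PUT1 (2.35), RRT1 (2.12), HXK1 (2.06), CAR2 (2.04), LIF1 (1.92) and RTA1 (1.90).

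By list, 21 of 30 respiratory and ATP synthase genes were higher than in set1 (8.86% of all) and none lower, with a median of 0.13 against wild type in set1 and 0.85 in set1htz1. HAP4 was at -0.76 to -0.32 on the set1 arrays and at 0.41 to 0.60 on the set1htz1 arrays (difference 1.05, adjusted p = 5.0e-04). Of 15 hexose kinase, trehalose and glycogen genes 10 were higher. Lower were 12 of 27 phosphate genes and 20 of 72 ribosome biogenesis genes (9.91% of all). Without set1htz1 array 3 these counts were 6, 11 and 8, and the respiratory count was 13 without set1htz1 array 2 and after quantile normalization. Of 67 mitochondrial ribosomal genes 16 were lower and 1 higher, with medians against wild type of -0.27 in set1 and -0.56 in set1htz1, and 10 were lower without set1htz1 array 3. BNA2 was already high in set1, at 1.74 to 2.20, and higher by 0.73 in the double mutant (adjusted p = 0.0028). IRC18 stood at 2.0 to 2.33 in set1, and its difference from set1htz1 was not called (0.12, adjusted p = 0.68). None of 25 PAU, DAN and TIR genes was called against set1, with medians of 0.43 in set1 and 0.41 in set1htz1.

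The label of the triple mutant set1htz1sir2 also names SIR2. Haploid yeast without Sir2 expresses the silent mating cassettes and represses its mating genes. LYS2 was at 2.65 in the double mutant and 0.22 in the triple, and the part of strain differences in this comparison was not tested. Of 5521 genes 682 differed (12.4%), 303 higher (5.49%) and 379 lower (6.86%) in the double mutant. The count was 278 after quantile normalization, 440 without the dye term, 381 without set1htz1 array 3, and 389 and 439 without arrays 1 and 3 of the triple mutant. The share of these genes that were higher in the double mutant was 44.4%, and 55.8% after quantile normalization. The highest were MF(ALPHA)1 (7.02, a bound, since the triple mutant was at the floor), SAG1 (5.31), AFB1 (4.99), the end-joining gene LIF1 and STE3 (4.54). SAG1 was at -5.06 to -4.64 on the triple mutant's arrays and at -0.38 to 0.99 on those of the double mutant. Of 10 haploid-specific genes 8 were higher in the double mutant. LIF1 went from 1.82 in the double mutant to -3.16 in the triple, a difference of 4.98 ± 0.19 (adjusted p = 3.4e-11). YLR041W (4.02), the pyrimidine gene URA1 (3.54) and the cytosolic malate dehydrogenase MDH2 (2.97) were also higher.

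The lowest against the triple mutant were mostly ORFs at chromosome ends: YNL337W (-2.01), YNR077C (-1.73), YFL063W (-1.66), CSS1 (-1.59), YHR214W (-1.56), YLL065W (-1.55) and YAL069W (-1.53). All 7 are among the 9 outermost ORFs of their arm, and YNL337W was at 0.64 to 0.92 in the double mutant and 2.32 to 3.06 in the triple. SPL2 was lower by 1.64, since the triple mutant lay near wild type for this gene (-0.07 to 0.25), whereas PHO12 was at -1.94 to -1.56 in the triple, and its difference was not called (-0.09, adjusted p = 0.76). Of 31 respiratory genes 13 were lower in the double mutant (6.86% of all) and none higher, with medians against wild type of 0.85 and 1.31. Of 130 cytosolic ribosomal protein genes 59 were lower, with a median of 0.60 in the triple mutant, and of 68 mitochondrial ribosomal genes 38 were lower, with a median of -0.07 in the triple. These counts depended on the processing: after quantile normalization 3 respiratory, 11 cytosolic ribosomal and 19 mitochondrial ribosomal genes were lower, and without set1htz1 array 3 they were 7, 26 and 21. The cytosolic ribosomal count was 89 without the H3K4A arrays, 20 without the dye term, 36 without set1htz1 array 2, and 25 and 26 without arrays 1 and 3 of the triple mutant. The mitochondrial ribosomal count was 21 without array 1 of the triple mutant, and the respiratory count was 8 without its array 4. Of 10 COS genes 5 were lower (2 after quantile normalization), with medians against wild type of 0.43 in the double and 1.06 in the triple mutant.

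**Figure D4:**
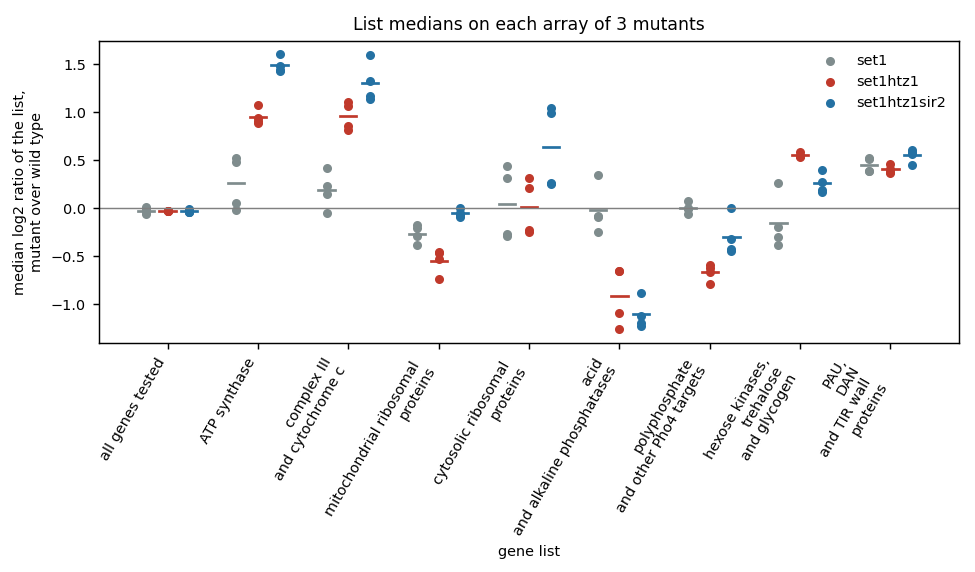
Median log2 ratio of mutant over wild type (vertical axis) of all genes tested and of 8 gene lists (horizontal axis), with 1 point per array and a bar at the mean of the 4 arrays for set1, set1htz1 and set1htz1sir2. ATP synthase rises in set1htz1 to array medians near 1 and lies higher still in the triple mutant, mitochondrial ribosomal proteins are lowest in set1htz1, and the cytosolic ribosomal protein points of each mutant split by dye.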

How the data were processed

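The deposited values are log2 ratios of mutant over wild type. Per the deposited description, GenePix 3.0 read the spots, dim spots and those whose pixel regression gave an R2 below 0.75 were dropped, and ratios were normalized to the total signal. The ratios were used here as the authors deposited them. The table's 6282 entries were averaged per ORF into 6074 genes, 296 of the entries carrying a z prefix that no source used here explains. A RefSeq table of assembly R64 gave names (5539 ORFs matched, 5031 with a symbol) and gene order. Scanner intensities and the genome build are not used here, so the number of arrays limits the precision. Labels give polyA RNA for all arrays and the deposited description total RNA for H3K4A, whose arrays enter the estimates of the spread and of the dye term, which shifts the fitted mean of a gene with a missing array.

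The 16 arrays were fitted together in limma 3.58.1 (R 4.3.3) with 4 group means and 1 shared dye term per gene, and the fit was checked on simulated data. A gene was called when its p, adjusted by Benjamini and Hochberg's method, was under 0.05. The groups share array numbers 1 to 4, and the numbers were not treated as pairs. Same-numbered arrays correlated at -0.527 to 0.293 after the group means and the dye term. These values were not set against those of differently numbered arrays, so they cannot decide whether the numbers mark pairs. Alternatives changed the normalization, the dye term, the samples, the filter on missing values, the entries averaged, the floor, the threshold, the variance prior and the arrays left out.

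The comparison, its lists and its tests were chosen with earlier results of these data known, and lists of mitochondrial translation, mRNA activation, assembly, import, carriers and ribosomal subunits were added after values were seen, so no list count is independent evidence. The named genes are the mutated genes and SIR2, the 15 largest rises and falls with 1 sign on every array, up to 6 members of each list or all of a list of up to 12, the 8 highest and 8 lowest of each contrast, markers and the 4 largest dye terms. Members beyond these, and the genes named by position or as neighbours, were chosen after their values were seen. A list is described by its counts and median beside those of all genes. Promoter motifs and genome sequence were not analysed here.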

Additional observations from a re-analysis of the deposited data

Results flagged for a closer look

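On the 4 arrays of set1htz1 a value was singled out when its gap to the nearest of the other arrays, divided by the whole range, exceeded the critical value of Dixon's test. At 4 arrays this held for 16 of 248 named genes with a value on every array and for 1 of 62 list medians, and chance singles out about 1 in 20. Among the genes the text dwells on, PHO11 was at -0.84 on array 1 and between -2.12 and -2.0 on the others, and SWD3 was at -1.60 on array 1 and between -0.69 and -0.54 on the others. MET17 was at -5.64 on array 2 and at the floor on the other 3. Because those 3 tie at the floor, any other value on array 2 would have been singled out, so this flag says nothing about that array. CHA1 was at -0.94 on array 4 and between -1.32 and -1.29 elsewhere, and CAR2 at 1.59 on array 3 and between 1.29 and 1.33 elsewhere.

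On array 4, PHO2 stood at 0.01, SML1 at 0.08, HAS1 at 0.30, FUS1 at 0.07 and STE12 at -0.58, where the nearest other arrays were at -0.45, 0.54, 0.48, 0.26 and -0.36. On array 1, PNC1 stood at 0.98, HHT2 at 0.07 and HXK2 at -0.10, with the nearest others at 0.72, -0.20 and 0.06. On array 3, MSM1 stood at -0.86, with the others between -0.60 and -0.58. On array 2, GAL1 stood at 1.22, with the others at 1.09 and 1.10, and YAL069W at -0.20, with the others at 0.24. The median of the hexose kinase, trehalose and glycogen genes was 0.58 on array 3 and 0.54 on each of the others.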

How the results depend on the processing

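Against wild type the counts of called, risen and fallen genes stayed within 1.5 times the main counts under all alternatives run, with 1949 to 2927 called, and 2081 to 2337 when 1 array was left out. The share that rose was 44.5% to 49.7%. In the groups, 24 to 28 respiratory genes rose, 46 to 58 mitochondrial ribosomal genes fell and 13 to 17 phosphate genes fell. Against set1, quantile normalization gave 614 called genes (279 higher, 335 lower) and an adjusted p under 0.01 gave 444 (210 and 234). Leaving out 1 array gave 678 to 1040 (317 to 471 and 361 to 569). Against the triple mutant, quantile normalization gave 278 (155 and 123, 55.8% higher), an adjusted p under 0.01 gave 299 (169 and 130, 56.5% higher) and no dye term gave 440 (220 lower). Leaving out 1 array gave 381 to 580 (198 to 270 and 182 to 310). The causes were not tested. With the array number as a replicate block in place of the dye term 2573 genes were called against wild type, 932 against set1 and 598 against the triple mutant. The main fit did not treat the numbers as pairs.

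No named gene reversed. Of 241 named genes called, 44 lost the call under at least 1 alternative, 42 of them when 1 array was left out. Without array 1 these were ARG8, ATP4, COS3, DUN1, IDH1, LYS21, MDH2, MF(ALPHA)1, NOP1, SAG1, SWD1, THI3, VBA3, YLL065W and YLR177W. Without array 2 they were AAD6, ARG1, ATP22, ATP4, BRE2, HMG1, HTB1, LYS21, MDH2, MEF2, REC104, SCJ1, STE2, SWC7, YCR099C, YLL065W and YLR177W. Without array 3 they were AAD6, ARG1, ARG8, ATP22, ATP4, BRE2, GPA1, HMG1, HTB1, IDH1, IDH2, MAS1, MDH2, MEF2, MFA2, NOP1, PHO4, REC104, RGT2, SAG1, SCJ1, STE12, VTC4, YFL063W and YRF1-1. Without array 4 they were AAD6, ARG1, ARG8, ARN2, ATP22, ATP4, BRE2, CSS1, DUN1, GPA1, HSP104, HTB1, IDH2, IRE1, LYS21, MEF2, SCO1, STE12, SWC7, YFL063W, YLL065W and YRF1-1. A further 11 uncalled genes gained a call under some alternative. Near-identical copies cannot be told apart on these arrays, and signal over background is not used here.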
